A study of Mus musculus with 5 samples.

Results

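Core proteins of the spliceosome were followed here at the mRNA level in mouse cardiac atria. The mice carried either 1 MRC2 allele with the amino acid change E990G (het) or only wild-type alleles (WT). Members were chosen by symbol in the authors' deposited comparison of het with WT atria: Lsm followed by a digit, Snrp, or Sf3a or Sf3b followed by a digit, with symbols ending in -ps left out. This gave 35 of the 14927 genes of that table, and all 35 were found by gene identifier among the 57186 genes of the RSEM tables. They are 13 Lsm genes, 13 Snrp genes and 9 Sf3 genes. Choosing them used no measured value, but the contrast drawn between short and long genes did follow an earlier look at these data. The Lsm and Snrp transcripts have a median length of 975 bases and the Sf3 transcripts one of 2795 bases.

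The spliceosome removes introns from pre-mRNA. Its U1, U2, U4 and U5 particles each carry a ring of Sm proteins on their small nuclear RNA, and U6 carries a related LSm ring. U1 pairs with the 5′ splice site, and U2 with the branch point, where the SF3A and SF3B complexes clamp it to the intron. A second LSm ring, in the cytoplasm, binds mRNA whose poly(A) tail has been shortened and promotes its decapping. Heart muscle expresses many alternatively spliced sarcomere and ion-channel mRNAs, and these core proteins are present in practically every cell type.

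The libraries were stranded polyA libraries of whole snap-frozen atria: 3 het libraries (replicates 5, 6 and 7; genotype MRC2 E990G-het) and 2 WT libraries (replicates 7 and 8), all labelled batch 2. They come from a series of 7 het and 8 WT mice between 4 and 10 months of age; strain, sex and the age of each mouse are not given in the labels used here. The labels name no tissue-restricted driver of the allele and no treatment. MRC2 is a collagen-binding endocytic receptor of mesenchymal cells, and its mRNA level does not check a missense allele: Mrc2 stood at 31.0 to 46.7 CPM (counts scaled to the library total) in het and at 34.2 and 43.6 CPM in WT libraries. Total expected counts ran from 17784601 to 28353091 per library. WT 7 stood apart: Ddx3y, a Y-linked gene, had 938 expected counts there and 0 to 3 elsewhere. Xist, made from the inactive X of females, had 21.5 expected counts in WT 7 and 6117 to 15280 elsewhere. WT 7 thus read as male and the other libraries as female, so each called member is also given without WT 7. Sex is thereby partly tied to group, and its part in the results was not tested. The atrial markers Nppa, Myl4, Myl7 and Sln summed to 27332 to 32573 CPM in het and to 44470 and 48909 CPM in WT libraries, and the ventricular markers to 87 to 213 CPM. Macrophage markers summed to 196 to 268 CPM in het and to 163 and 168 CPM in WT, and fibroblast markers to 1314 to 1454 CPM in het and to 948 and 1266 CPM in WT. Erythroid markers (2590 to 5275 CPM in het, 599 and 2227 CPM in WT) and endothelial markers (606 to 647 CPM, 535 and 557 CPM) were higher in each het library too, and the muscle markers Ckm, Myl1 and Acta1 summed lower (784 to 933 CPM, 1326 and 1451 CPM). The ventricular sum overlapped between the groups, at 107, 213 and 87 CPM in het and 156 and 174 CPM in WT. Adipocyte markers overlapped too, at 149 to 271 CPM in het and 182 and 298 CPM in WT. The other sums given here move with the groups, although Cd68, C1qa, Dcn, Col1a1, Cdh5 and Acta1 within them overlapped. The part of these marker levels in the results was not tested. In bulk tissue, fewer cells of a type and less RNA per cell cannot be told apart.

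The question was whether the mRNAs of these proteins differ between het and WT atria. Of the 35 genes, all of which passed edgeR's expression filter, 3 were lower in het and 0 were higher (edgeR quasi-likelihood test, Benjamini-Hochberg adjusted p under 0.05 over 16412 genes). The 3 were Lsm4 of the LSm rings, Snrpn of the Sm ring and Sf3b5 of the SF3B complex. Without WT 7 only Lsm4 was called. Of all genes tested, 2.66% were called lower and 2.99% higher. At an unadjusted p under 0.05, 10 members were lower and 1, Sf3b1, was higher, where the shares over all genes were 11.9% and 12.9%. DESeq2 called 6 members lower (Snrpc, Snrpb, Lsm4, Lsm3, Sf3b5 and Snrpn) and limma-voom only Lsm4, and neither called a member higher. Over all genes DESeq2 called 4.75% lower and 5.28% higher, and limma-voom 1.35% lower and 1.44% higher. The log2 fold change was negative for 26 of the 35 members and for 50.1% of all genes. Every het library lay below both WT libraries for 15 members and above both for 3, and each of these patterns was found in 21.1% of all genes. The median log2 fold change was -0.22 over the members and -0.0014 over all genes tested.

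**Figure D1:**
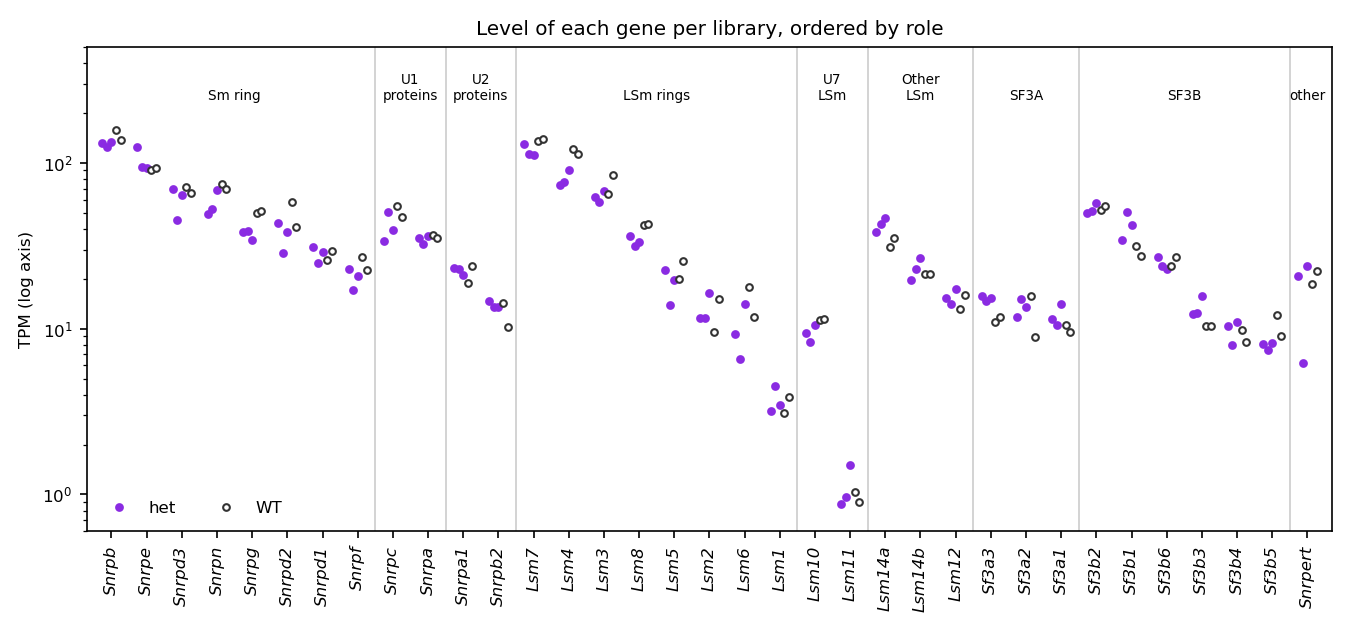
Level of each of the 35 genes in TPM (scaled to transcript length and library total, log axis) in the 3 het libraries (filled) and 2 WT libraries (open), grouped by role and ordered by mean level. Levels span from about 1 TPM for Lsm11 to over 100 TPM for Snrpb and Lsm7, and het and WT points overlap for most genes.

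The Sm ring held the member with the highest level in TPM. The B protein gene Snrpb stood at 125 to 133 TPM in het and at 137 and 158 TPM in WT libraries. In CPM it read 86.6, 78.2 and 82.8 in het 5, het 6 and het 7 and 111 and 104 in WT 7 and WT 8, without overlap. Its log2 fold change of -0.38 (SE 0.12) did not pass the edgeR quasi-likelihood test (adjusted p = 0.0757).

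Snrpn encodes SmN, a close relative of the B protein made from the paternal allele of an imprinted locus and best known from brain and heart. It measured 82.1, 81.1 and 100.3 CPM in the 3 het libraries against 124 and 126 CPM in WT 7 and WT 8. The groups did not overlap, and the means were 87.9 ± 10.8 CPM (SD, n = 3) and 125 ± 1.49 CPM (SD, n = 2). Snrpn was lower by a log2 fold change of -0.51 (SE 0.13, edgeR quasi-likelihood test, adjusted p = 0.0457). With any of the 5 libraries left out it missed the threshold, with values from -0.61 (without het 7) to -0.45 (without het 6); without WT 7 it was -0.52 (adjusted p = 0.0870 in the same test). Its level carries an uncertainty of counting, since the upstream frame Snurf shares the Snrpn transcript and RSEM divides such reads: Snurf was listed at 6.88 to 25 expected counts. Of the neuron markers, Rbfox3 lay at 0.13 to 0.38 CPM in het and at 1.11 and 1.52 CPM in WT libraries. Snap25 lay at 0.94 to 3.24 CPM in all 5. Uchl1, the most abundant, had 4.93, 5.15 and 6.44 CPM in het and 7.58 and 7.83 CPM in WT. The summed list ran from 6.22 to 8.54 CPM in het and from 10.5 to 10.8 CPM in WT. The part of neuronal RNA in the Snrpn difference was not tested. The ratio of Snrpb to Snrpn in TPM was 2.33 ± 0.367 in het (SD, n = 3) and 2.05 ± 0.106 in WT (SD, n = 2), so the difference between the groups was smaller than the spread among the het libraries.

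The other ring subunits all had negative log2 fold changes too, giving 8 of 8 in the Sm ring with a median of -0.44 and 1 call. Most short genes were negative as well. In the shortest decile of tested genes (204 to 1075 bases) 1363 of 1643 were, with a median of -0.38. Snrpd2 (SmD2) had -0.60 (SE 0.22), with 48.3, 29.0 and 37.5 CPM in het and 66.1 and 49.3 CPM in WT, so that het 5 came close to WT 8. Snrpg, Snrpf and Snrpd3 lay at -0.55, -0.49 and -0.31. Snrpd1 and Snrpe were nearest to 0 at -0.16 and -0.05. Snrpe read 20.4 CPM in het 5 and 11.1 to 12.4 CPM in the other het libraries, around the WT values of 16.8 and 13.4 CPM. Snrpert, a processed pseudogene in the GENCODE annotation whose symbol fits the rule, held 2 to 13 expected counts per library. No fold is read from it alone, but its negative value enters the counts, medians and correlations over the members. Its reads may be shared with Snrpe.

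U1 and U2 carry proteins of their own. Snrpc (U1-C), which steadies the pairing of U1 with the 5′ splice site, measured 15.9, 18.8 and 15.5 CPM in het and 25.7 and 21.9 CPM in WT libraries. All het values were below both WT values, and the log2 fold change was -0.51 (SE 0.15, adjusted p = 0.0631 in the edgeR quasi-likelihood test). Snrpa (U1-A), which binds a stem-loop of U1 RNA, stood at -0.22. Of the U2 proteins that sit together on a stem-loop of U2 RNA, Snrpa1 (U2-A′) had -0.16 and Snrpb2 (U2-B″) had 0.17. Snrpa1 was the higher of that pair in TPM (19.0 to 24.0, against 10.3 to 14.7 for Snrpb2), and its CPM of 16.5 to 21.1 in het and 17.2 and 24.5 in WT overlapped.

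The LSm rings share LSm2 to LSm7, with LSm8 completing the nuclear ring on U6 and LSm1 the cytoplasmic ring of mRNA decay. Lsm4 had the lowest fold change of all members. It measured 40.3, 32.6 and 39.4 CPM in het 5, het 6 and het 7 against 71.5 and 60.8 CPM in WT 7 and WT 8. The het values thus lay well below both WT values, with means of 37.4 ± 4.23 CPM (SD, n = 3) and 66.1 ± 7.58 CPM (SD, n = 2). Lsm4 was lower by a log2 fold change of -0.82 (SE 0.14, edgeR quasi-likelihood test, adjusted p = 0.0229). The call held without WT 7 (-0.70, adjusted p = 0.0398) and without WT 8 (-0.92, adjusted p = 0.0163), and missed the threshold without het 5 (-0.88, adjusted p = 0.0563), het 6 (-0.73, adjusted p = 0.0833) or het 7 (-0.86, adjusted p = 0.0615). In the fits without a WT library only 1 WT library remains, and its spread is taken to equal that among the het libraries.

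The other LSm ring genes again had negative values, 8 of 8 in all with a median of -0.49 and 1 call. Beside them stand the 1363 negative genes of 1643 in the shortest decile of tested genes. Lsm7 had the highest level of the group, at 112 to 131 TPM in het and 136 and 139 TPM in WT libraries. In CPM it read 19.7, 12.1 and 13.6 in het and 24.2 and 18.6 in WT, where het 5 lay above WT 8, and with a log2 fold change of -0.50 (SE 0.21) it was not called by the edgeR quasi-likelihood test (adjusted p = 0.171). Lsm3 (-0.56), Lsm8 (-0.49) and Lsm5 (-0.48) lay close to it, and Lsm1 (-0.30), Lsm2 (-0.22) and Lsm6 (-0.18) nearer to 0. Of the subunits that tell the rings apart, Lsm8 had 31.7 to 36.3 TPM in het and 42.2 and 42.5 TPM in WT libraries, and Lsm1 had 3.11 to 4.5 TPM in all 5. The Lsm8 to Lsm1 ratio in TPM was 9.4 ± 2.22 in het (SD, n = 3) and 12.3 ± 1.83 in WT (SD, n = 2), with overlapping libraries.

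**Figure D2:**
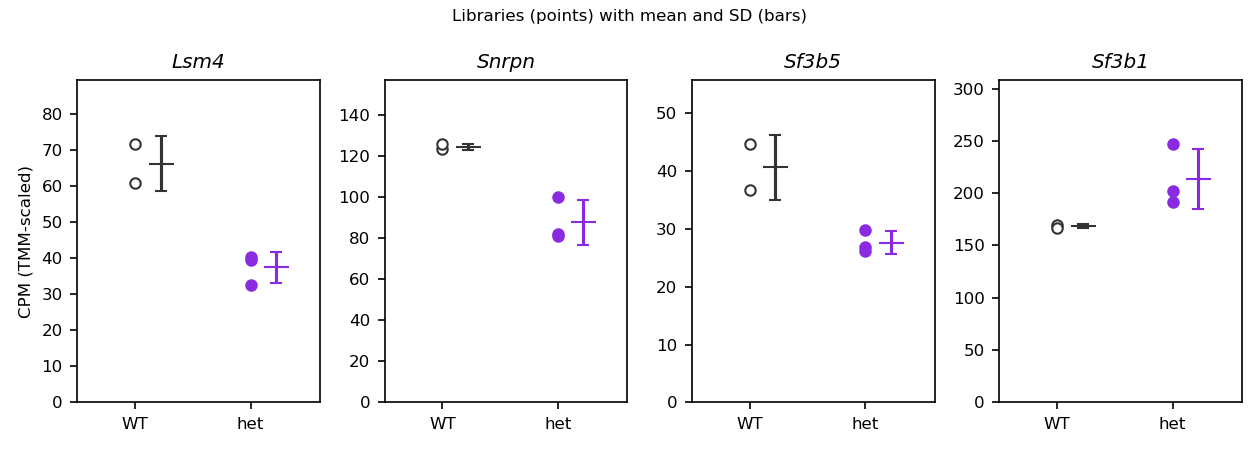
CPM (scaled by TMM factors) of Lsm4, Snrpn, Sf3b5 and Sf3b1 in each WT library (open points) and het library (filled points), with bars for mean and SD. Het libraries lie below WT for the 3 genes called lower, and above WT for Sf3b1, which was not called.

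Lsm10 and Lsm11 replace SmD1 and SmD2 in the U7 particle, which trims the 3′ ends of replication-dependent histone pre-mRNAs. Both were scarce. Lsm10 had 4.39 to 5.48 CPM in het and 7.01 and 7.13 CPM in WT, without overlap (log2 fold change -0.47, SE 0.23, adjusted p = 0.231 in the edgeR quasi-likelihood test), and Lsm11 stood at 0.06. Lsm14a and Lsm14b, P-body proteins that repress translation, and Lsm12 have LSm domains outside these rings. Lsm14a had the highest level of these, at 38.2, 43.0 and 46.7 TPM in het and 31.3 and 35.0 TPM in WT, with a log2 fold change of 0.19 (SE 0.13) that was not called, while Lsm14b and Lsm12 both stood at -0.10. In TPM all het libraries lay above WT for 5 members and below for 8; over all genes these shares were 27.7% and 11.2%.

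SF3A and SF3B are the protein complexes of U2 that hold the branch-point duplex. In the RefSeq promoter table (build GRCm38.p6, which differs from the authors' GRCm39), 27 members have an entry of 250 bases before to 50 after the gene start. Lsm1, Lsm4, Lsm12, Sf3b4, Sf3b5, Snrpb, Snrpd1 and Snrpert have none there. Of 7 motifs searched on both strands, CCGGAAG (the core letters of an ETS-type site) was in 6 of 7 Sf3 entries and in 5 of 20 Lsm and Snrp entries. Those were Lsm5, Snrpb2, Snrpc, Snrpe and Snrpg. The same letters were in 9.93% of all 27025 genes with an entry and in 18.1% of the 11689 of these that were tested. The windows below show these letters, or CTTCCGG for the opposite strand, in capitals with up to 30 bases on each side, for the 6 Sf3 genes that share them and for Snrpc and Snrpg.
Sf3a1, chr11:4160317-4160353, plus strand: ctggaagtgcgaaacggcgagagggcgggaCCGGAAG
Sf3a2, chr10:80798629-80798695, plus strand: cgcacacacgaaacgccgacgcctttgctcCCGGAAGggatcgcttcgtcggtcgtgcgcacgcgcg
Sf3a3, chr4:124714741-124714807, plus strand: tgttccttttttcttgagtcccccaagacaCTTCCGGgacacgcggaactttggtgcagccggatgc
Sf3b2, chr19:5295458-5295498, minus strand: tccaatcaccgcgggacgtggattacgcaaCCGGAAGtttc
Sf3b3, chr8:110846996-110847053, minus strand: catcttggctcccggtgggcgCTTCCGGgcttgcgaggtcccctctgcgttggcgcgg
Sf3b6, chr12:4817493-4817559, plus strand: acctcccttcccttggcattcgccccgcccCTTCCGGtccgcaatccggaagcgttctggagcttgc
Snrpc, chr17:27840018-27840084, plus strand: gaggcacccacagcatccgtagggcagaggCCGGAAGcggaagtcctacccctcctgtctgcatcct
Snrpg, chr6:86371365-86371431, plus strand: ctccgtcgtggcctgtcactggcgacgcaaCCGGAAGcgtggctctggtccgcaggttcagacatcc

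The letters began between 7 bases (Sf3a1) and 229 bases (Sf3b3) before the gene start in the Sf3 windows. In Sf3b6 a second match follows in small letters. The letters were not in the Sf3b1 entry. The 6 other motifs were an NRF1-type palindrome, the CCAAT box (CCAAT), the GC box (GGGCGG), the TATA box (TATAAA), a YY1-type motif (ATGGCGGC) and the cAMP response element (TGACGTCA), found in 1, 2, 4, 1, 1 and 0 of the 7 Sf3 entries and in 4, 9, 14, 2, 1 and 3 of the 20 Lsm and Snrp entries. Over all genes with an entry, their shares were 5.19%, 41.1%, 38.2%, 15.7%, 2.6% and 2.03%, in the same order, and over the tested genes with an entry 10.1%, 42.3%, 65.4%, 9.47%, 5.06% and 3.34%. None of the 15 CCGGAAG matches in members shared a base with a match of these motifs. A match describes letters and shows no bound factor. Of the Sf3 genes that hold it, Sf3a1, Sf3a2, Sf3a3 and Sf3b3 had positive fold changes, and Sf3b2 and Sf3b6 negative ones.

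The SF3A subunits showed small fold changes. Sf3a3 had 23.9, 20.5 and 20.4 CPM in het and 16.8 and 19.6 CPM in WT. All 3 het values were above both WT values, and the log2 fold change was 0.25 (SE 0.15, adjusted p = 0.332 in the edgeR quasi-likelihood test). Sf3a2 and Sf3a1 stood at 0.06 and 0.05, and Sf3a1 turned to -0.10 in a fit with each library's trend on transcript length removed.

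SF3B joins large and small proteins, and its mRNAs did not move together. Sf3b1, the large scaffold that closes around the branch-point adenosine, had 192, 247 and 202 CPM in het against 170 and 167 CPM in WT libraries. Its het values were all higher, most so in het 6, with a log2 fold change of 0.34 (SE 0.14) that did not pass the edgeR quasi-likelihood test (adjusted p = 0.161). Sf3b3, a beta-propeller scaffold, had 54.3, 51.4 and 61.2 CPM in het and 45.4 and 48.0 CPM in WT (0.25, SE 0.13, adjusted p = 0.248 in the same edgeR test). Sf3b2, which contacts the intron near the branch point, had the highest SF3B level at 50.1 to 57.6 TPM in het and 52.2 and 54.8 TPM in WT. Its 131, 131 and 133 CPM in het against 134 and 145 CPM in WT gave a log2 fold change of -0.09 (SE 0.12).

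The small SF3B subunits differed from each other. Sf3b5, a small protein bound to the Sf3b1 and Sf3b3 scaffolds, measured 29.9, 26.2 and 26.9 CPM in het 5, het 6 and het 7 against 44.6 and 36.7 CPM in WT 7 and WT 8. Het lay below WT without overlap, with means of 27.6 ± 1.97 CPM (SD, n = 3) and 40.6 ± 5.59 CPM (SD, n = 2). Sf3b5 was lower by a log2 fold change of -0.56 (SE 0.14, edgeR quasi-likelihood test, adjusted p = 0.0401). The call held without WT 8 (-0.68, adjusted p = 0.0304) and was lost without WT 7 (-0.41, adjusted p = 0.153), het 5 (-0.61, adjusted p = 0.0694), het 6 (-0.52, adjusted p = 0.131) or het 7 (-0.54, adjusted p = 0.102). Sf3b6, another small subunit, had 23.6, 18.0 and 17.5 CPM in het and 20.9 and 24.9 CPM in WT (-0.22, SE 0.17). Sf3b4, an RNA-binding subunit, had 15.4, 12.1 and 15.9 CPM in het and 13.4 and 14.8 CPM in WT (0.04, SE 0.17), and both genes overlapped between groups.

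Sf3b1 and Sf3b5, subunits of the same complex, were also set against each other per transcript length. The TPM ratio of Sf3b1 to Sf3b5 was 4.27, 6.81 and 5.18 in the het libraries and 2.58 and 3.07 in the WT libraries. Het lay above WT in each library, with means of 5.42 ± 1.28 (SD, n = 3) and 2.83 ± 0.342 (SD, n = 2). That separation was fixed in advance by the single genes. In TPM every het library lay above both WT libraries for Sf3b1 and below both for Sf3b5. The ratio restates these differences and is no further evidence. The smallest two-sided exact permutation p that 3 against 2 libraries allow is 0.2, so no single ratio can pass 0.05. Sf3b2 over Sf3b5 gave 6.72 ± 0.442 in het (SD, n = 3) and 5.21 ± 1.28 in WT (SD, n = 2).

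The Lsm and Snrp genes, shorter by median, were next compared with the Sf3 genes. The lengths of the sets overlap: Lsm11 is the longest member at 6453 bases, and Sf3b6 has 1180 bases. Of the 26 Lsm and Snrp genes 23 had a negative log2 fold change, with a median of -0.35, 2 calls lower and 0 higher. Of the 9 Sf3 genes 6 had a positive one, with a median of 0.05, 1 call lower and 0 higher. Summed over genes, the Lsm and Snrp CPM was 726, 618 and 694 in het and 859 and 831 in WT, whereas the Sf3 CPM was 542, 571 and 552 in het and 515 and 522 in WT. Neither sum overlapped between the groups. Sf3b1 gave the largest part of the Sf3 sum, with 192, 247 and 202 CPM in het and 170 and 167 CPM in WT. The mean log2 CPM of Sf3, which weighs each gene alike, overlapped, at 5.38, 5.26 and 5.33 in het and 5.30 and 5.32 in WT. That of Lsm and Snrp did not, at 4.15, 3.75 and 4.01 in het and 4.32 and 4.28 in WT. The gap between the sets, taken in each library as the mean log2 CPM of Sf3 minus that of Lsm and Snrp, was 1.24, 1.51 and 1.32 in het and 0.99 and 1.04 in WT. Its means of 1.36 ± 0.141 (SD, n = 3) and 1.02 ± 0.0394 (SD, n = 2) differed by 0.34, more than the pooled SD of 0.117, and by 0.31 without WT 7. Summed TPM likewise read 957 to 1076 in het and 1169 and 1192 in WT for Lsm and Snrp, and 181 to 201 in het and 167 and 177 in WT for Sf3.

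**Figure D3:**
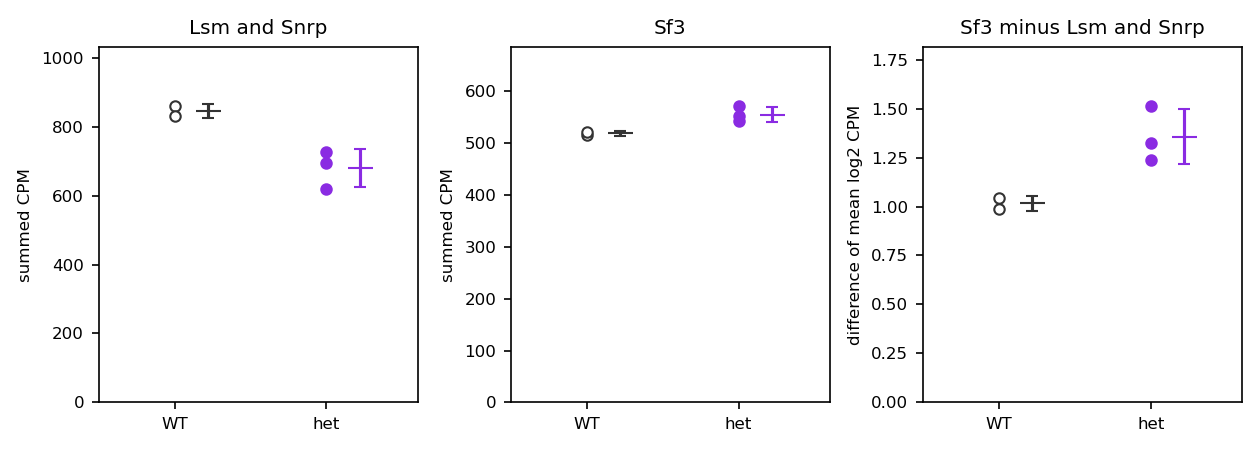
Summed CPM of the 26 Lsm and Snrp genes (left) and the 9 Sf3 genes (middle), and the per-library difference of mean log2 CPM between these sets (right), for each WT (open) and het (filled) library with mean and SD. Het libraries are lower in the first panel and higher in the other panels, with no overlap. The mean log2 CPM of the Sf3 genes, not drawn, overlapped between the groups.

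Length ran along with this difference in all genes. The shortest decile of tested genes (204 to 1075 bases) had a median log2 fold change of -0.38 and the longest (5356 to 123179 bases) one of 0.33. Members followed the same slope, with all 17 shorter members negative (median -0.48) and the 18 longer ones split into 9 positive and 9 negative (median -0.02). Across the 35 genes, which share the same libraries, log2 fold change and transcript length had a Spearman rho of 0.607, and over the 16412 genes rho was 0.447. In a fit with each library's trend on transcript length removed, the median became -0.11 for Lsm and Snrp and 0.11 for Sf3, the gap difference fell to 0.11, and rho over the members was 0.128. The median over all genes was 0.03 in that fit. Within SF3B the single member under 1500 bases, Sf3b6, gave a gap difference of 0.10 against the Lsm and Snrp genes in place of 0.34.

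**Figure D4:**
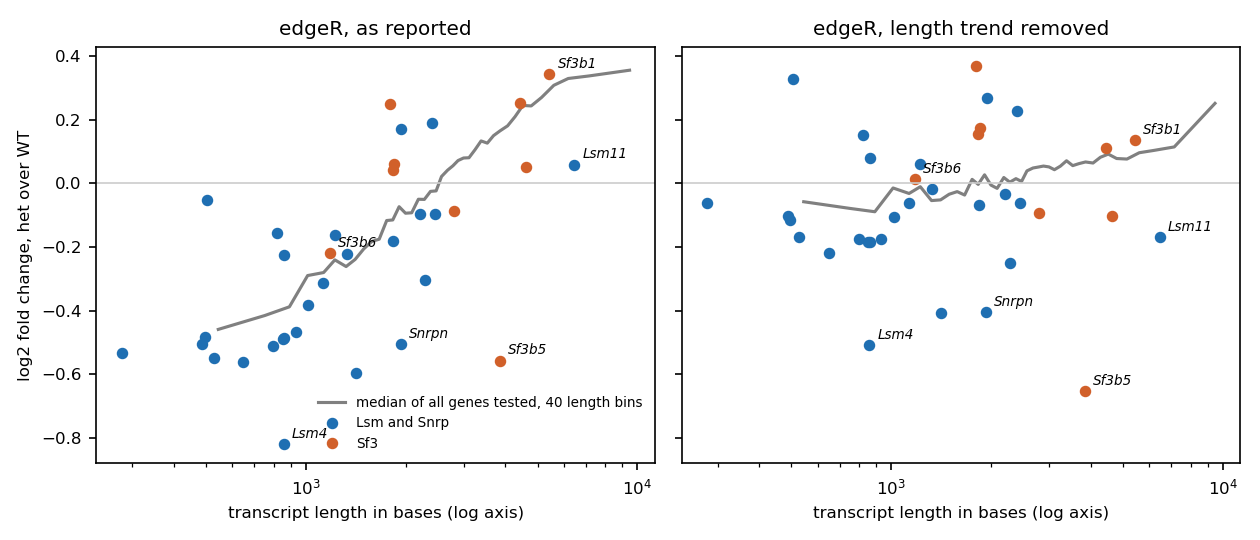
Log2 fold change, het over WT, against transcript length in bases (log axis) for Lsm and Snrp genes (blue) and Sf3 genes (orange), as fitted (left) and with the length trend removed (right); the grey line is the median of all tested genes in 40 length bins. On the left most members lie along the grey line. The called Lsm4, Snrpn and Sf3b5 lie below it in both panels, as do genes that were not called. Among those is Snrpd2, at -0.60 on the left and -0.41 on the right.

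With the length trend removed 0 members were called by the edgeR quasi-likelihood test in either direction, and 0.0548% of all genes were called lower and 0.067% higher. At an unadjusted p under 0.05 that fit had 3 members lower, Lsm4, Snrpn and Sf3b5, and 1 higher, Sf3a3, where 15.5% of all genes passed in either direction. Lsm4 then stood at -0.51 (adjusted p = 0.0832), Snrpn at -0.40 (adjusted p = 0.168) and Sf3b5 at -0.65 (adjusted p = 0.0618). At its annotated length Sf3b5 thus moved away from 0, and the other 2 moved towards it. With GC trends removed as well, the edgeR quasi-likelihood test again called 0 members (5 lower and 2 higher at an unadjusted p under 0.05), beside 0.0186% of all genes lower and 0.0929% higher. The annotated Sf3b5 transcript has 3841 bases, of which 258 code for protein, and genes of that length had positive medians (0.17 in the bin around 3855 bases). Whether the expressed Sf3b5 mRNA is that long was not tested. Its shift in the fits with trends removed and its TPM level rest on that length. Genes in the bin around 753 bases had a median of -0.42. Coding length gave a rho of 0.705 with log2 fold change over the 34 members that have one.

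**Figure D5:**
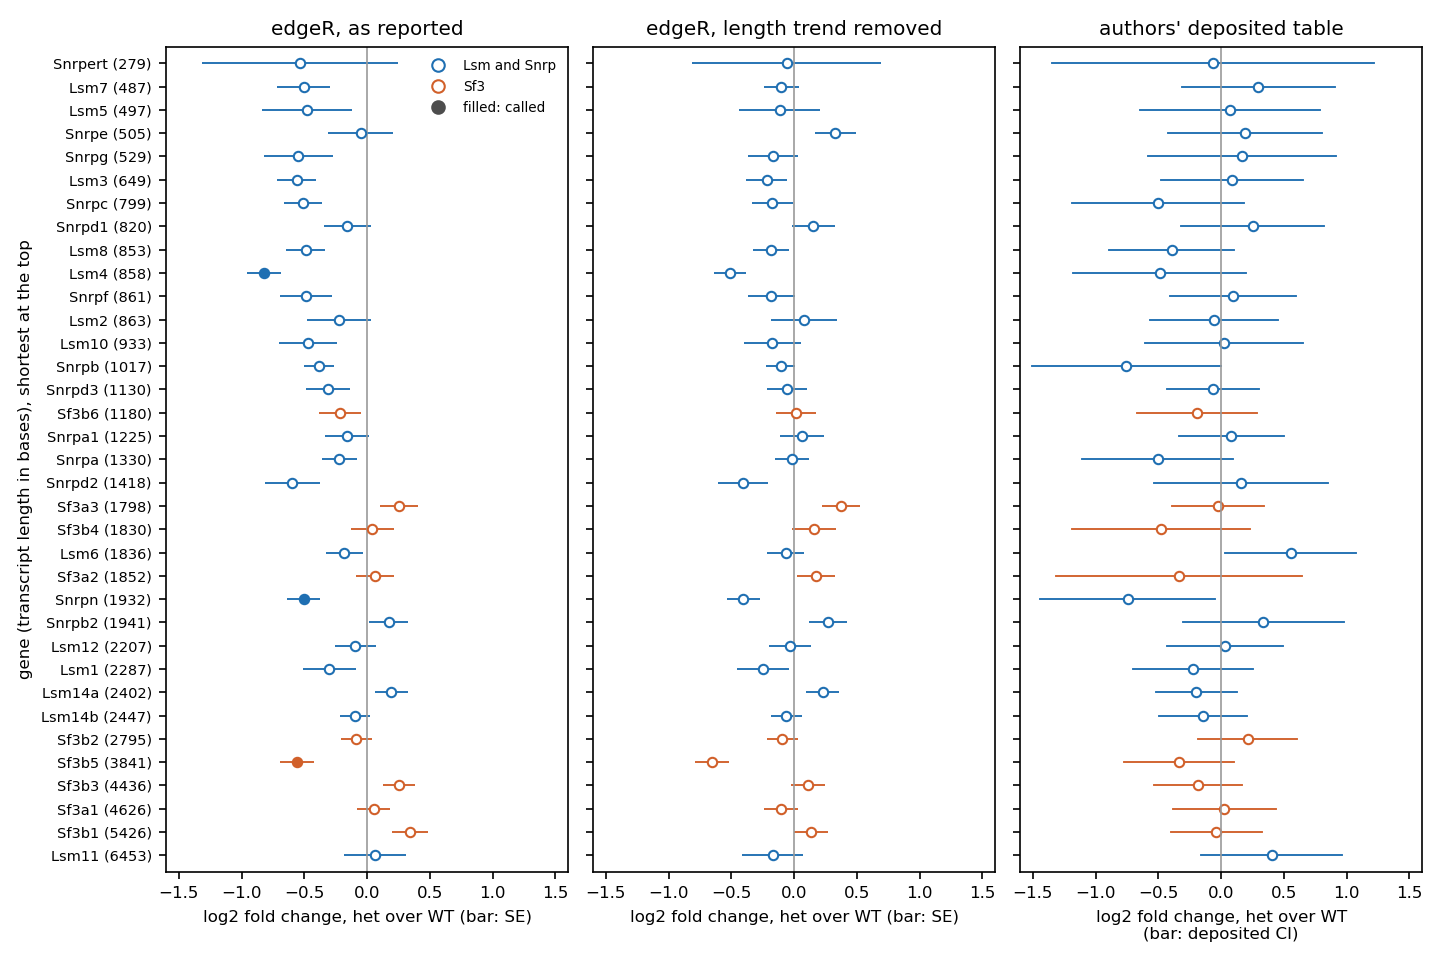
Log2 fold change, het over WT, of each member from the shortest transcript (top) to the longest (bottom), in the edgeR fit (left, bars are SE), with the length trend removed (middle, bars are SE) and in the authors' deposited table (right, bars are its confidence limits). Filled points mark genes called by edgeR, which are Lsm4, Snrpn and Sf3b5 on the left and none in the middle.

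The authors' deposited table holds their own comparison of het with WT atria of this series. Which animals it covers is not given in the sources used here: it may hold more than these 5 libraries, so its groups may differ from those above, and it is no independent measurement. Of the 14927 genes in the authors' deposited table, 0 had an adjusted p under 0.05. At an unadjusted p under 0.05 the authors' deposited table had 2 members, Snrpn with a log2 fold change of -0.74 (p = 0.0303, limma) and Snrpb with -0.76 (p = 0.0379, limma), while 0.275% of its genes were lower and 5.6% were past that level in either direction. Lsm4 had -0.49 and Sf3b5 -0.34 in the authors' deposited table, the same sign as in the edgeR fit, and Sf3b1 had -0.04, the other sign. Lsm6 had 0.55 in the authors' deposited table, against -0.18 in the edgeR fit. Its confidence limits in the authors' deposited table, 0.03 and 1.08, exclude 0, while its p there was 0.0622 (limma). The limits and p-values of the authors' deposited table thus need not pass the same genes. Of the members 19 of 35 were negative in the authors' deposited table, against 55.7% of all its genes. Its medians over members were 0.03 for Lsm and Snrp and -0.19 for Sf3 in the authors' deposited table, an order opposite to that of the 5 libraries. Transcript length and log2 fold change of the authors' deposited table had a rho of -0.0714 over the 35 members.

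Transcript shares were read from the RSEM transcript tables. Of the 32 members with at least 2 annotated transcripts, 7 had a share of the leading transcript that did not overlap between het and WT libraries (Lsm2, Lsm5, Lsm6, Lsm8, Sf3a1, Sf3b2 and Sf3b6), where 25.4% of all such genes did. Transcripts annotated as retained intron took 10.95%, 11.5% and 7.5% of Lsm2 counts in het and 17.5% and 22.2% in WT. For Sf3b2 these shares were 13.1%, 11.2% and 13.2% in het and 15.1% and 24.2% in WT, highest in WT 8. Both genes thus had lower shares in het, whereas Lsm8 had higher ones, with 11.2%, 16.7% and 14.5% in het and 11.01% and 9.58% in WT. Without overlap, the shares of Sf3a1, Lsm3, Sf3b6 and Snrpg were also higher in het and that of Snrpa was lower. Those shares were small, from 0% to 2.74%. How many of all genes separate in this way was not counted. Over all genes, retained-intron transcripts took 2.44% to 2.54% of counts in het and 2.94% and 2.54% in WT. Snrpa1 had a transcript annotated for nonsense-mediated decay at 12.3%, 18.0% and 20.6% in het and at 17.1% in WT 7, and it was listed at 0 in WT 8. Lsm4 and Snrpn kept 98.0% to 100% of their counts in their leading transcript in every library, and Sf3b5 has a single annotated transcript.

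Partners of these proteins were taken from fixed lists. Over all genes tested, the edgeR quasi-likelihood test called 2.66% lower and 2.99% higher. At an unadjusted p under 0.05 these shares were 11.9% and 12.9%. Of 19 proteins of the U4/U6.U5 tri-snRNP and of 23 of the Prp19 complex and the catalytic steps, 0 were called by the edgeR quasi-likelihood test, with 2 higher and 3 lower and 2 higher and 2 lower at an unadjusted p under 0.05 (medians -0.06 and 0.07). Their most abundant members in CPM were Prpf8, the catalytic-centre scaffold (0.47, adjusted p = 0.0670), and Prpf19, a ubiquitin ligase (-0.25, adjusted p = 0.241).

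The minor spliceosome, which removes the rare U12-type introns, had 1 of 8 called in each direction (median -0.08). Over all genes these shares were 2.66% lower and 2.99% higher. Rnpc3, a protein of its U11/U12 particle, was higher at 24.4, 22.6 and 16.4 CPM in het against 13.6 and 11.9 CPM in WT (0.73, SE 0.19, adjusted p = 0.0439, edgeR quasi-likelihood test). Zmat5, of the same particle, was lower at 10.9, 8.86 and 8.89 CPM in het against 15.2 and 15.5 CPM in WT (-0.68, SE 0.17, adjusted p = 0.0438). Of 16 proteins of Sm-ring assembly, 1 was called lower and 0 higher (median 0.02). That was Gemin7 of the SMN complex, at 15.1, 13.8 and 15.02 CPM in het against 22.0 and 22.2 CPM in WT (-0.59, SE 0.14, adjusted p = 0.0359, edgeR quasi-likelihood test). Zmat5 (790 bases) and Gemin7 (890 bases) are short. In the shortest decile of tested genes, up to 1075 bases, 154 of 1643 were called lower.

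Partners of the cytoplasmic LSm ring had the highest median of the lists given here. Of 10 tested, 3 were called higher and 0 lower, with a median of 0.39 beside the -0.0014 of all genes, of which 2.99% were called higher. Their median length is 4550 bases, and of the longest decile of tested genes, from 5356 bases, 261 of 1642 were called higher. They were Dcp2, the decapping enzyme (0.64, SE 0.13), Patl1, which links the ring to decapping (0.51, SE 0.13), and Xrn1, the exonuclease that degrades decapped mRNA (0.49, SE 0.13), with adjusted p of 0.0280, 0.0418 and 0.0480 in the edgeR quasi-likelihood test. Het libraries lay above WT for each: 34.3 to 37.2 CPM against 22.1 and 23.7 CPM for Dcp2, 38.4 to 42.3 against 28.2 and 29.2 for Patl1, and 44.6 to 50.5 against 31.8 and 35.4 for Xrn1. These transcripts are long, at 7846, 4144 and 10032 bases, and with the length trend removed their log2 fold changes were 0.43, 0.39 and 0.39 and none was called. Of the other called genes given here, Rnpc3 stood at 0.70 in that fit (edgeR quasi-likelihood test, adjusted p = 0.0912), while Zmat5 went to -0.36 and Gemin7 to -0.29.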

How the data were processed

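Atrial RNA of 3 het and 2 WT mice was compared, with groups taken from the labels. Stranded polyA libraries were sequenced in pairs of reads, per the labels' protocols. The submitters' processing notes name GRCm39 as build and list STAR, RSEM, SAMtools, Trim Galore, FastQC, MultiQC, edgeR and limma. Versions are not given in the sources used here. The deposited RSEM tables hold expected counts, estimated by the authors and not normalized, per the file headers. Beside them stand TPM and FPKM values that the authors scaled by transcript length and sequencing depth, and the isoform percent of each transcript; FPKM were not used. The authors' deposited table holds log2 fold changes, moderated scores and p-values of their own limma comparison.

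Rounded expected counts entered edgeR's quasi-likelihood test (TMM scaling, default expression filter, robust dispersions, Benjamini-Hochberg adjustment, threshold 0.05). CPM use TMM-scaled totals. The coefficient of biological variation was 0.18, and an SE is the log2 fold change's size over the root of F. Transcript length is the mean RSEM length over libraries. In the fit with the length trend removed, a smooth curve of log2 count on log length was subtracted in each library (mgcv), and GC content, known for 98.4% of tested genes, was added in a further fit. GENCODE vM21 (GRCm38) gave GC content, transcript types and coding length, and no coordinates. The labels name separate mice, and p-values measure the spread among these 5 libraries. With 3 against 2 libraries there are 10 splits and a smallest two-sided exact p of 0.2. Totals of 17784601 to 28353091 counts set the precision.

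Members and lists were chosen with earlier results of these data known. Full values were given to each called member, the highest by TPM of each role and the SF3B subunits, and, of each list, to called genes or else the most abundant. A list of further splicing proteins is not reported here. Alternatives were other scalings, DESeq2, limma-voom (plain or with quality weights), limma on log2(TPM + 1) and log2(TPM + 0.1), other filters and leaving out each library. Chosen after seeing the data were leaving out Sf3b5 or Snrpert, splitting all members by length, transcript-type shares and the promoter search. RSEM's model splits reads shared by near-identical genes, and the entries Snrp1c-ps1 and Snrp1c-ps2, which are no members, hold 1 count each. The code was tested on simulated het against WT data with 200 changed genes. Among 16057 genes without a trend it recovered 64% of the genes changed by 1 on the log2 scale and 100% of those changed by 2, and 8 of its 172 calls were false. Under a simulated length trend over 16073 genes 85 of 248 calls were false, and 1 of 164 after its removal. Versions used here were R 4.3.3, DESeq2 1.42.0, mgcv 1.9.3, edgeR 4.0.16 and limma 3.58.1.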

Additional observations from a re-analysis of the deposited data

How the results depend on the processing

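The sign of each of the 3 called genes held in all 17 other settings, where Lsm4 was called in 9, Sf3b5 in 7 and Snrpn in 5. The number of members called lower was 0 with the length trend removed, with both the length and GC trends removed, in limma-voom with quality weights, and with limma on log2(TPM + 1) and on log2(TPM + 0.1), in which 3, 5, 8, 3 and 3 members were lower at an unadjusted p under 0.05. It was 6 in DESeq2, 1 in limma-voom and 5 when every gene with a count was tested, and leaving out 1 library gave 0 to 2. No setting called a member higher. Over all genes, the 490 higher and 436 lower calls became 11 and 9 with the length trend removed, 15 and 3 with both trends removed, 867 and 780 in DESeq2, and 237 and 222 in limma-voom. They were 0 and 0 in limma-voom with quality weights (3632 genes at an unadjusted p under 0.05), 0 and 1 on log2(TPM + 1), 2 and 3 on log2(TPM + 0.1), and 1304 and 907 with every gene that had a count. Library size alone as scaling gave 795 higher and 391 lower calls, and upper-quartile scaling 327 and 568. Leaving out 1 library gave 0 to 588 higher and 0 to 290 lower calls. The median log2 fold change of Lsm and Snrp was -0.11 with the length trend and -0.13 with both trends removed, and -0.41 to -0.20 with 1 library left out. That of Sf3 was 0.11 with the length trend removed, 0.16 on log2(TPM + 1), 0.18 on log2(TPM + 0.1) and 0.10 with every gene that had a count, and -0.028 (without het 7) to 0.13 with 1 library left out. The difference between het and WT in the gap between the sets was 0.11 with the length trend removed, 0.17 with both trends removed and 0.10 with Sf3b6 as the only Sf3 gene, against 0.26 to 0.38 with 1 library left out. It was 0.41 without Sf3b5, 0.33 without Snrpert, and 0.35 between the longer and the shorter members of any family. Of 593 member values over these settings 515 stayed on their side, 30 lost and 6 gained a call, and 42, of 14 members that were not called, changed sign. With the length trend removed these were Lsm2 0.078, Sf3a1 -0.10, Sf3b6 0.013, Snrpe 0.33, Snrpd1 0.15, Snrpa1 0.060 and Lsm11 -0.17. With both trends removed they were Lsm2 0.088, Sf3a1 -0.099, Snrpe 0.16, Snrpb 0.0039, Snrpa 0.090, Snrpa1 0.0045 and Lsm11 -0.13. On log2(TPM + 1) they were Lsm2 0.098, Lsm1 0.060, Lsm12 0.090, Lsm14b 0.091, Snrpe 0.17, Snrpd1 0.032 and Snrpa1 0.063, and on log2(TPM + 0.1) Lsm2 0.11, Lsm1 0.074, Lsm12 0.095, Lsm14b 0.094, Snrpe 0.17, Snrpd1 0.033 and Snrpa1 0.066. With upper-quartile scaling Sf3b4 was at -0.0029. With 1 library left out the ranges that crossed 0 were -0.50 to 0.12 for Lsm2, -0.28 to 0.13 for Lsm12, -0.091 to 0.26 for Sf3a2, -0.028 to 0.13 for Sf3a1, -0.033 to 0.15 for Sf3b4, -0.36 to 0.13 for Snrpe, -0.40 to 0.13 for Snrpa1 and -0.17 to 0.18 for Lsm11. The cause was not tested. No paired analysis was possible because the het libraries are numbered 5, 6 and 7 and the WT libraries 7 and 8, so that the groups share fewer than 2 numbers. Counts were lowest for Snrpert, Lsm5, Lsm10, Lsm11, Lsm1 and Lsm2, with SEs of 0.21 to 0.78. Snrpg and Snrpe had higher counts and SEs of 0.27 and 0.26, wider than some of these.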
